A study of Rattus norvegicus with 6 samples.

Results

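The expression of 10 genes that clear or bind calcium was followed in the vestibular sensory epithelium of the rat: the 4 plasma membrane calcium pumps (*Atp2b1*, *Atp2b2*, *Atp2b3* and *Atp2b4*), the sodium-calcium exchanger *Slc8a1*, the buffers *Calb1*, *Calb2* and *Pvalb*, and the S100 proteins *S100a1* and *S100b*. Members were the rows of the count table that carry these symbols. All 10 had 1 row each, among 32883 rows in the table, and all 10 were among the 14352 genes that passed the filter on low counts. The animals were adult male Long-Evans rats in 2 groups of 3. The control rats drank plain water, and the rats called IDPN-4wk drank 20 mM 3,3'-iminodipropionitrile (IDPN) for 4 weeks. IDPN is a nitrile that damages hair cells (HCs), the receptor cells of hearing and balance. The 2 utricles and 6 cristae of a rat were pooled, so a library is 1 animal and holds HCs together with supporting cells, nerve and other cells of the dissected tissue.

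HCs admit calcium through the mechanotransduction channels of the stereocilia and through voltage-gated channels at the synapse. Calcium is then bound by mobile EF-hand proteins in the cytosol and pumped out across the membrane by the plasma membrane calcium ATPases (PMCAs), or exchanged for sodium. PMCA2, the product of *Atp2b2*, is the pump of the stereocilia, and its loss makes mice deaf and ataxic. Calretinin (*Calb2*), calbindin (*Calb1*) and parvalbumin (*Pvalb*) are the classical mobile buffers of sensory and nerve cells, and calretinin is widely used to label type II HCs and a class of calyx afferents.

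In IDPN-4wk animals 5 of the 10 genes were downregulated and 0 were upregulated (edgeR, with 1 higher at an unadjusted p under 0.05, and 0 upregulated with DESeq2). The downregulated genes were *Atp2b2*, *Atp2b3*, *Calb1*, *Calb2* and *Pvalb*, and they fell to between 22.4% (*Calb2*) and 45.1% (*Pvalb*) of the control level. Downregulated means an adjusted p (Padj) under 0.05 in the quasi-likelihood test of edgeR together with a fold change over 1.5, and 6.62% of all tested genes met this rule in the lower direction and 3.09% in the higher. Padj without the fold change was under 0.05 for 9 members, against 19.4% of all tested genes. The normalised levels, in counts scaled to a common library size (CPM), did not overlap between the groups in any of the 10 members, which held for 37.8% of all tested genes. The mean was lower in IDPN-4wk for 9 members, and 47.2% of all tested genes had a negative log2-Fold change. The median log2-Fold change was -1.004 over the members and 0.02 over all genes. As these are bulk samples, fewer cells of a type and less RNA per cell cannot be told apart.

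Libraries held from 13358678 to 18561991 counts, and 3 counts in a library correspond to between 0.155 and 0.216 CPM. The labels give 1 batch for all 6 libraries. Animal codes in the titles have 1 prefix for the 3 IDPN-4wk rats and other prefixes for the controls, and what the prefix stands for is not stated, so it cannot be told apart from treatment. Markers of HCs were detected in every library. The 11 markers listed had a summed level from 3023 to 3298 CPM in the 3 controls against from 1582 to 2173 CPM in the 3 exposed rats, and all 11 had a lower mean in IDPN-4wk, 5 of them downregulated.

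**Figure D1:**
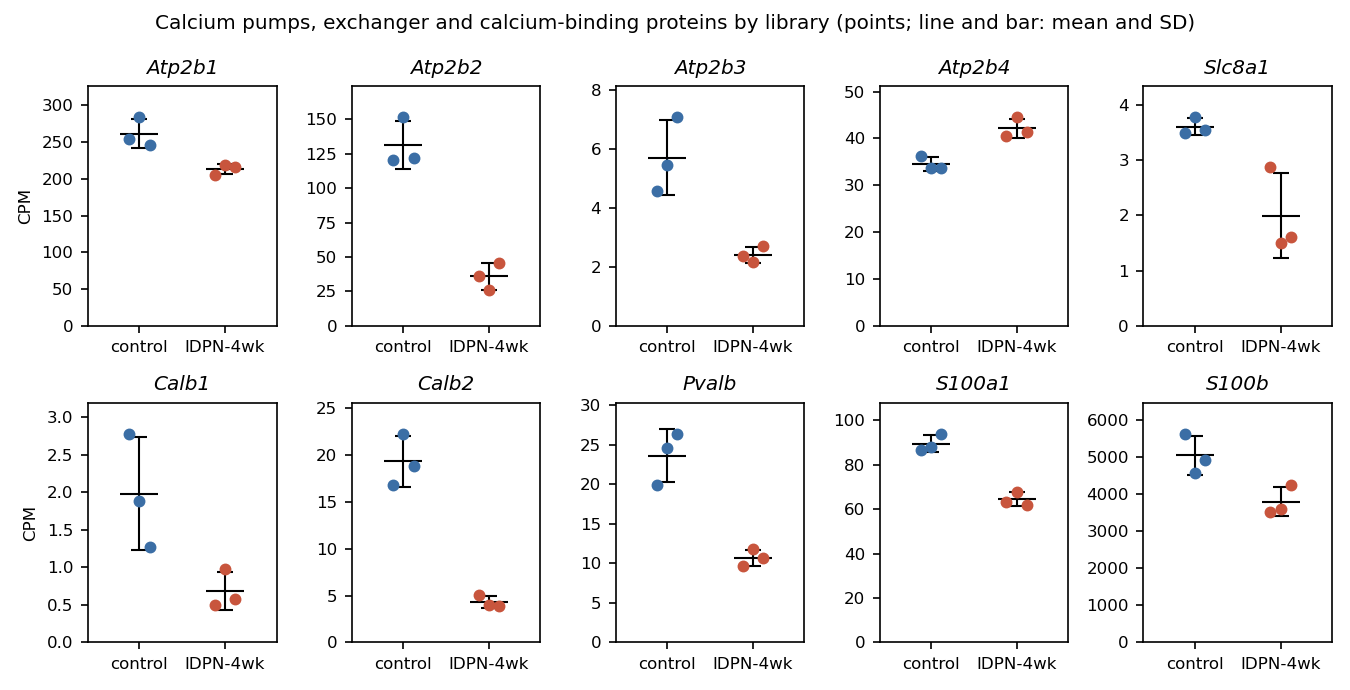
Normalised level in CPM (vertical axes, starting at 0) of the 10 genes in each library, with control and IDPN-4wk on the horizontal axis. Points are libraries, the short line is the mean of 3 and the bar is the SD. The mean of 9 genes was lower in IDPN-4wk, and that of *Atp2b4* was higher.

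Sequence upstream of the annotated start was read from a table of RefSeq promoters (GRCr8), in which 6 of the 10 members were matched. The promoters of *Atp2b3*, *Calb1*, *Calb2* and *S100a1* were not analysed here. *Atp2b2* and *Pvalb* are shown because they are the downregulated members among the 6. Each line gives the 250 bases before the start, 5′ to 3′ on the strand of the gene, at chr4:148763654-148763903 (minus strand) for *Atp2b2* and chr7:111666290-111666539 (minus strand) for *Pvalb*. Capitals mark the GC box GGGCGG and the E-box CANNTG, searched on both strands.
Atp2b2: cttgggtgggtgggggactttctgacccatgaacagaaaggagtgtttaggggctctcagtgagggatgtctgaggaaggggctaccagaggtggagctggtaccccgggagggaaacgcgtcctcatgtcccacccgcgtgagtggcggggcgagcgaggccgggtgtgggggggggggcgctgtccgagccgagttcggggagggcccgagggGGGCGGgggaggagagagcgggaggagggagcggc
Pvalb: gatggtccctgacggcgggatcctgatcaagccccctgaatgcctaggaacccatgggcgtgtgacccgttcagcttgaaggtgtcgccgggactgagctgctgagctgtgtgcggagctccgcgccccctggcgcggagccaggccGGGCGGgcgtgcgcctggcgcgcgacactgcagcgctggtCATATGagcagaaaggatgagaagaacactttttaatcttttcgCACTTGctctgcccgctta

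Both windows held 1 GC box, a motif found in 30.5% of 33469 windows of the same length. The *Atp2b2* window held no E-box and the *Pvalb* window held 2, where 65.5% of all windows hold at least 1. The TATA box TATAAA was in neither, and in 12.9% of all windows. RefSeq lists 14 transcripts for *Atp2b2* and 2 for *Pvalb*, and only the start given for the gene was read.

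Among the PMCAs, *Atp2b2* (ENSRNOG00000030269) showed the greatest decrease. Its level was 120.2, 151 and 122 CPM in the control libraries and 36.5, 26.0 and 45.5 CPM in the IDPN-4wk libraries. The lowest control library was thus well above the highest treated one. The mean went from 131 ± 17.6 to 36.0 ± 9.71 CPM (SD over 3 animals a group), with a log2-Fold change of -1.87 (with SE 0.17 and Padj by edgeR 5.91e-05). The estimate was from -2.09 to -1.68 over the 6 fits that each left out 1 library, and the gene was downregulated in all of them.

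*Atp2b3* (ENSRNOG00000061304) encodes a pump found mainly in brain. It was scarce here, at 4.58, 5.45 and 7.08 CPM in the 3 controls against 2.37, 2.17 and 2.70 CPM in the 3 exposed rats, from 33 to 100 counts per library. The groups were separate, although the control libraries spread more widely than the treated ones. This gave a log2-Fold change of -1.24 (with SE 0.26 and Padj by edgeR 0.00821).

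The more widely expressed pumps moved less. *Atp2b1* (ENSRNOG00000004026), the housekeeping pump of most cells, was at 254, 284 and 247 CPM in the 3 controls against 205, 219.5 and 216 CPM in the 3 exposed rats. Its log2-Fold change of -0.29 (with SE 0.08 and Padj by edgeR 0.0217) was under the fold change threshold, and Padj was 0.0770 when control replicate 2 was left out and 0.0796 when IDPN-4wk replicate 1 was. *Atp2b4* (ENSRNOG00000003031), another pump of many tissues, was the member with a higher mean in IDPN-4wk. Its levels were 36.2, 33.7 and 33.6 CPM in the 3 controls against 40.6, 44.5 and 41.5 CPM in the 3 exposed rats. The log2-Fold change was 0.29 (with SE 0.09 and Padj by edgeR 0.0444), also under the threshold, and Padj was from 0.0628 to 0.138 in the 6 fits that left out 1 library each.

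The make-up of the PMCA counts differed between the groups. Summed over the 4 genes, the level was 433 ± 36.0 CPM in the 3 controls against 294 ± 10.5 CPM in the 3 exposed rats (SD over 3 animals a group). *Atp2b2* made up 29.0%, 31.9% and 29.8% of this sum in the control libraries and 12.8%, 8.91% and 14.9% in the IDPN-4wk libraries. The share of *Atp2b4* was from 7.10% to 8.73% in control and from 13.6% to 15.2% in IDPN-4wk libraries, and that of *Atp2b1* from 59.8% to 61.2% and from 70.7% to 75.1%. None of these shares overlapped between the groups. They are shares of counts, which depend on transcript length, so a share can be compared between libraries but not between genes.

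**Figure D2:**
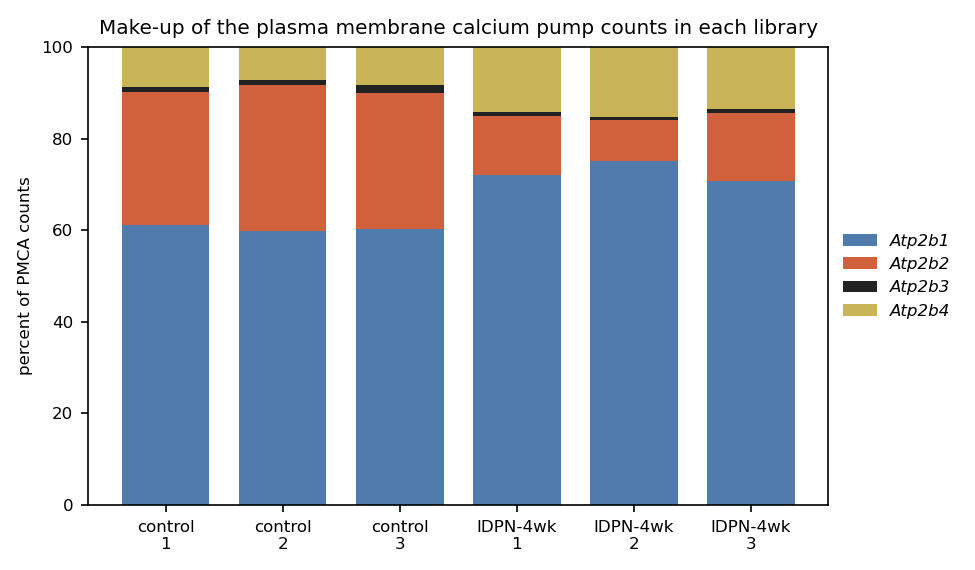
Stacked bars of the 4 PMCA genes as percent of their summed counts (vertical axis, 0 to 100) in each of the 6 libraries (horizontal axis). The *Atp2b2* segment is 8.91% to 14.9% in IDPN-4wk and 29.0% to 31.9% in control libraries.

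PMCAs work as complexes with neuroplastin (*Nptn*) or basigin (*Bsg*), membrane glycoproteins that stabilise the pump. Neither was past the thresholds. *Nptn* was at 264, 266 and 245 CPM in the 3 controls against 239, 203 and 244 CPM in the 3 exposed rats (log2-Fold change -0.17 with SE 0.08, Padj by edgeR 0.182). *Bsg* had a log2-Fold change of 0.08 (with SE 0.08 and Padj by edgeR 0.495), and its groups overlapped.

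The exchanger *Slc8a1* (ENSRNOG00000008479), best known for calcium removal in heart muscle, was measured at low depth, from 25 to 54 counts per library. Levels were 3.49, 3.77 and 3.54 CPM in the 3 controls against 2.88, 1.496 and 1.61 CPM in the 3 exposed rats. IDPN-4wk replicate 1 lay between the controls and the other treated libraries. The log2-Fold change was -0.87 (with SE 0.32 and Padj by edgeR 0.0831), and without that library it was -1.22 (Padj by edgeR 0.0383), past both thresholds.

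Of the buffers, *Calb2* (ENSRNOG00000016977) changed most. Calretinin transcripts stood at 16.9, 22.3 and 18.9 CPM in the 3 controls against 5.10, 4.02 and 3.86 CPM in the 3 exposed rats. The treated libraries lay close together and far below the lowest control. Its log2-Fold change was -2.16 (with SE 0.18 and Padj by edgeR 3.66e-05), and from -2.30 to -2.05 over the fits that left out 1 library.

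*Pvalb* (ENSRNOG00000006471) encodes parvalbumin, a slow calcium buffer of HCs, fast muscle and inhibitory neurons. It fell from 20.0, 24.6 and 26.4 CPM in control to 9.63, 11.8 and 10.6 CPM in IDPN-4wk libraries (log2-Fold change -1.14 with SE 0.15, Padj by edgeR 4.29e-04). The groups were well apart, and the gene was downregulated in all fits that left out 1 library, with estimates from -1.25 to -1.06.

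*Calb1* (ENSRNOG00000007456) was among the scarcest members, with 43, 27 and 18 counts in control and 7, 19 and 9 counts in IDPN-4wk libraries. In CPM these were 2.78, 1.89 and 1.27 against 0.503, 0.980 and 0.579, so the groups were separate after scaling although the raw counts overlapped (18 against 19). The log2-Fold change was -1.49 (with SE 0.44 and Padj by edgeR 0.0387). The call was lost without control replicate 1 (-1.17, Padj by edgeR 0.164), control replicate 2 (-1.53, 0.0887), IDPN-4wk replicate 1 (-1.33, 0.126) or IDPN-4wk replicate 3 (-1.39, 0.0901). At this depth the decrease of calbindin transcripts rests on few reads.

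The S100 proteins are small EF-hand proteins that act more as calcium sensors than as buffers. *S100a1* (ENSRNOG00000012410), known from heart and skeletal muscle and present in the inner ear, was at 86.5, 88.1 and 94.0 CPM in the 3 controls against 63.5, 67.9 and 62.0 CPM in the 3 exposed rats. The spread within groups was small and Padj was under 0.05 (log2-Fold change -0.47 with SE 0.08, Padj by edgeR 0.00173), but the change stayed under 1.5-fold in every fit that left out 1 library (from -0.51 to -0.44). *S100b* (ENSRNOG00000001295), a protein of Schwann cells and other glia, was at 5634, 4584 and 4930.2 CPM in the 3 controls against 3530.4, 3609 and 4246 CPM in the 3 exposed rats. For this gene the log2-Fold change was -0.41 (with SE 0.10 and Padj by edgeR 0.0146), and Padj rose to 0.0719 when IDPN-4wk replicate 1 was left out and to 0.0553 when replicate 2 of that group was.

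**Figure D3:**
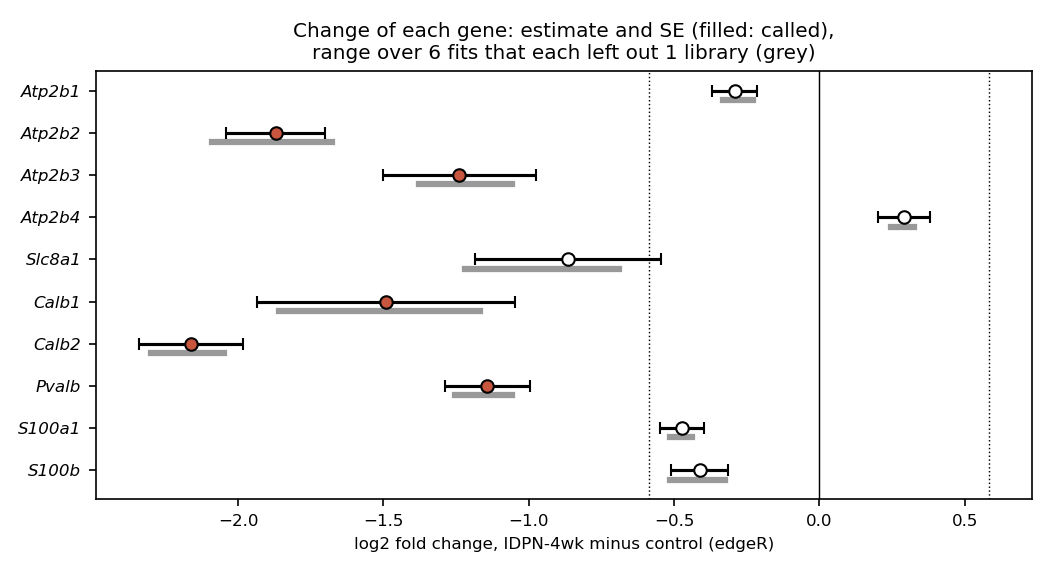
Log2-Fold change of IDPN-4wk against control (horizontal axis) for each gene (vertical axis), with its SE as a bar. Filled points passed both thresholds, dotted lines mark a 1.5-fold change, and grey bars span the fits that each left out 1 library. *Calb2* (-2.16) and *Atp2b2* (-1.87) lie farthest from 0, and the grey bar of *Calb1* is the widest.

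Levels of the members were set beside the 11 HC markers, since both are read from the same libraries. The markers were at between 17.0% (*Slc17a8*, the vesicular glutamate transporter of HCs) and 97.4% (*Chrna10*, a subunit of the efferent acetylcholine receptor) of control. *Calb2* and *Atp2b2* were each at a lower percent of control than 10 of the 11 markers, *Calb1* than 9, *Atp2b3* than 8 and *Pvalb* than 7. *Myo7a*, the motor protein used to count HCs, was at 235, 271 and 251 CPM in the 3 controls against 149, 152 and 185 CPM in the 3 exposed rats (log2-Fold change -0.64 with SE 0.10, Padj by edgeR 0.00109). *Pou4f3*, a transcription factor needed for HC survival, had a log2-Fold change of -0.51 (with SE 0.07 and Padj by edgeR 6.01e-04).

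Per CPM of *Myo7a* in the same library, *Atp2b2* was at 0.511, 0.560 and 0.487 in control and 0.244, 0.171 and 0.245 in IDPN-4wk libraries, so that its mean was 42.4% of control on this scale. The corresponding ratios of *Calb2* were 0.0716, 0.0824 and 0.0754 in control and 0.0342, 0.0264 and 0.0208 in IDPN-4wk libraries, a mean of 35.5% of control. On the same scale *Atp2b3* was at 65.9% and *Pvalb* at 70.8% of control, again with separate groups. The ratios of *Calb1*, *Slc8a1*, *S100a1* and *S100b* overlapped between the groups. The direction of *Atp2b1* turned on this scale, to 128% of control with separate groups, as did the means of *S100a1* (113%) and *S100b* (116%), and *Atp2b4* was at 191%. *Myo7a* itself was at 64.4% of control, so a gene that fell less than *Myo7a* lies above its control value here by construction. The 11 HC markers were at 17.0% to 97.4% of control, so the ratios depend on the marker chosen, and other markers were not tried. With 3 libraries against 3, an exact permutation test of such a ratio cannot give a p under 0.10, and the ratios are given as values.

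**Figure D4:**
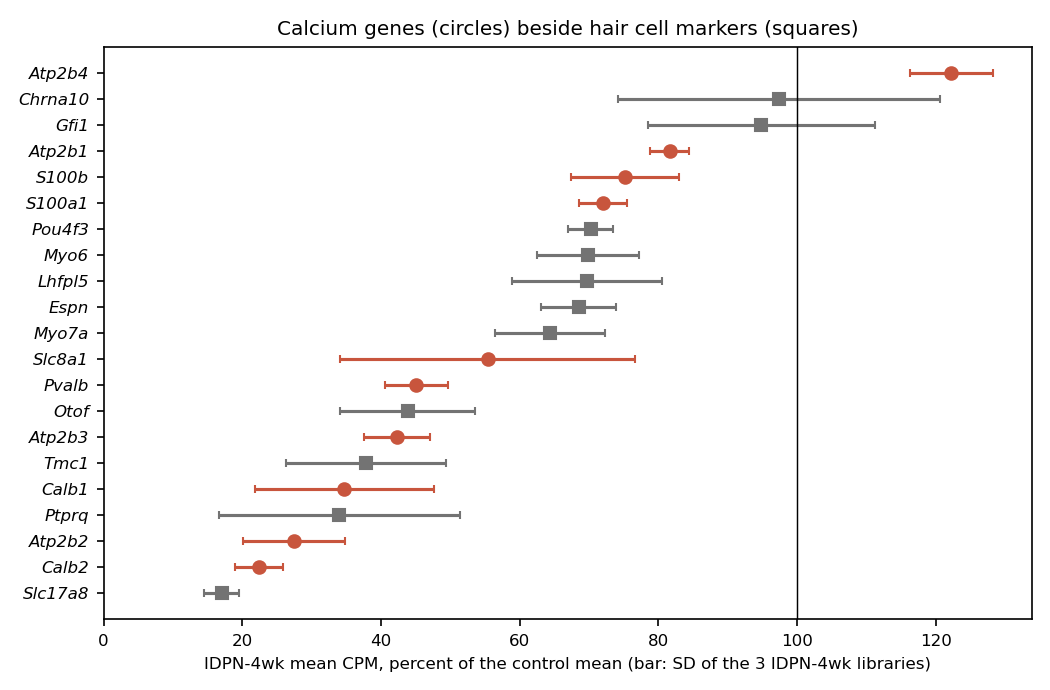
Mean level in IDPN-4wk as percent of the control mean (horizontal axis, starting at 0) for the 10 calcium genes (circles) and 11 HC markers (squares), ordered from lowest to highest up the vertical axis. Bars are the SD of the 3 IDPN-4wk libraries. *Calb2* (22.4%) and *Atp2b2* (27.4%) sit near the bottom, above *Slc17a8* (17.0%).

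Markers of other cells that also use these proteins were read beside them. Of 8 Schwann cell genes, 7 were at a lower mean and 1 was downregulated, and their median log2 difference was -0.49. Their summed level was from 8472 to 10708 CPM in the 3 controls against from 5755 to 8660 CPM in the 3 exposed rats, so the groups overlapped. The 9 neuron markers summed to between 96.1 and 107 CPM in the 3 controls against between 67.9 and 72.8 CPM in the 3 exposed rats, and *Stmn2* had at most 6 counts in a library. Of the 8 neuron markers tested, 2 were downregulated (*Snap25* and *Rbfox3*) and 2 upregulated (*Nefh* and *Prph*, both scarce). The part of glia and nerve in the decreases of *S100b*, *Calb1*, *Calb2* and *Pvalb* was not tested. Of 11 supporting cell markers, 5 were downregulated, with a median of -0.52. The mean was lower in 9 and higher in 2 of them, *Sox9* (0.24) and *Hes1* (0.36), neither of which passed the test. Macrophage (0.22), stroma (-0.03), endothelium (-0.32) and dark cell and melanocyte lists (-0.66) had these medians on the log2 scale.

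Skeletal muscle expresses parvalbumin and S100A1, so its markers were read as well. Of 10 muscle genes listed, 8 were in the table, *Ckm* and *Tnni2* had 0 counts in all 6 libraries, and 2 passed the filter. The summed level was from 17.3 to 23.8 CPM in control and from 48.5 to 84.3 CPM in IDPN-4wk libraries, most of the latter from *Myh4*. Without *Myh4*, a sum taken after the values were seen, the other 7 genes were at 10.6 to 13.1 CPM in control and 7.66 to 12.5 CPM in IDPN-4wk libraries, and the groups overlapped. *Myh4*, a fast myosin, rose from 10.7, 6.71 and 6.44 CPM to 40.5, 71.9 and 62.0 CPM (log2-Fold change 2.87 with SE 0.24, Padj by edgeR 3.66e-05). *Tnnc2* was at a mean of 10.9 CPM in the 3 controls against 8.39 CPM in the 3 exposed rats, without passing the test. The part of muscle in the levels of *Pvalb* and *S100a1* was not tested.

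Other genes that handle calcium were counted from a list of 81 symbols, of which 68 rows were tested. The log2-Fold change was negative in 45 and positive in 23, with a median of -0.20, where 47.2% of all tested genes were negative. Past both thresholds were 14 lower and 3 higher genes. Over all tested genes the shares were 6.62% lower and 3.09% higher, and the counts by role below are to be read beside these shares. *Atp2a1*, *Ocm* and *Calm3* were not analysed here, and 2 rows carry the symbol *Calm2*.

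By role, the calcium pumps of the endoplasmic reticulum (ER) and Golgi and their small regulators had 3 of 6 genes downregulated, among them *Atp2a3*. This pump, SERCA3, went from 255 ± 11.9 to 118 ± 29.8 CPM (SD over 3 animals a group, log2-Fold change -1.11 with SE 0.14, Padj by edgeR 4.36e-04). The other exchangers had 2 of 6 downregulated, *Slc8a3* and *Slc24a3*, both at low counts. In the mitochondrial uniporter complex 0 of 7 genes passed both thresholds with edgeR or with DESeq2, and 3 had an unadjusted p under 0.05 with edgeR.

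Among release and store-operated entry genes, 2 of 11 were downregulated. *Ryr3*, a ryanodine receptor that releases calcium from the ER, was at 131, 140.2 and 148 CPM in the 3 controls against 44.9, 52.0 and 70.0 CPM in the 3 exposed rats (log2-Fold change -1.33 with SE 0.14, Padj by edgeR 1.19e-04). *Ryr2* was the other one, with at most 15 counts in a treated library. In the ER lumen, 3 of 12 calcium-binding genes were downregulated (*Calr*, *Hspa5* and *Hsp90b1*, which are also chaperones).

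The other EF-hand genes, the largest group with 24 of the 68 tested rows, held all 3 of the upregulated ones. These were *S100a4*, *S100a10* and *S100a11*, members of the same family as *S100a1* and *S100b*. *S100a4* rose from 8.59, 6.92 and 8.07 CPM in control to 34.1, 21.1 and 23.2 CPM in IDPN-4wk libraries (log2-Fold change 1.73 with SE 0.19, Padj by edgeR 1.81e-04). The log2-Fold change was 1.06 (SE 0.18) for *S100a10*, the partner of annexin A2, and 1.22 (SE 0.26) for *S100a11*. Within the S100 genes the direction was thus not shared, and *S100a13* was downregulated.

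With *S100a13*, 4 of these EF-hand genes were downregulated, and the others were *Cabp2*, *Ocm2* and 1 row of *Calm2*. *Cabp2*, which tunes the voltage-gated calcium channels of HCs, was at 211, 247 and 227 CPM in the 3 controls against 127, 128 and 146 CPM in the 3 exposed rats (log2-Fold change -0.77 with SE 0.08, Padj by edgeR 1.67e-04). *Ocm2*, an oncomodulin gene and close relative of parvalbumin, fell from 54.4 ± 6.13 to 29.4 ± 2.15 CPM (SD over 3 animals a group, log2-Fold change -0.89 with SE 0.11, Padj by edgeR 2.79e-04). The row of *Calm2* that was downregulated (ENSRNOG00000030871) had a log2-Fold change of -0.77 and the other row one of 0.02. Calmodulin genes and their copies resemble one another, so the assignment of reads between the rows is uncertain.

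**Figure D5:**
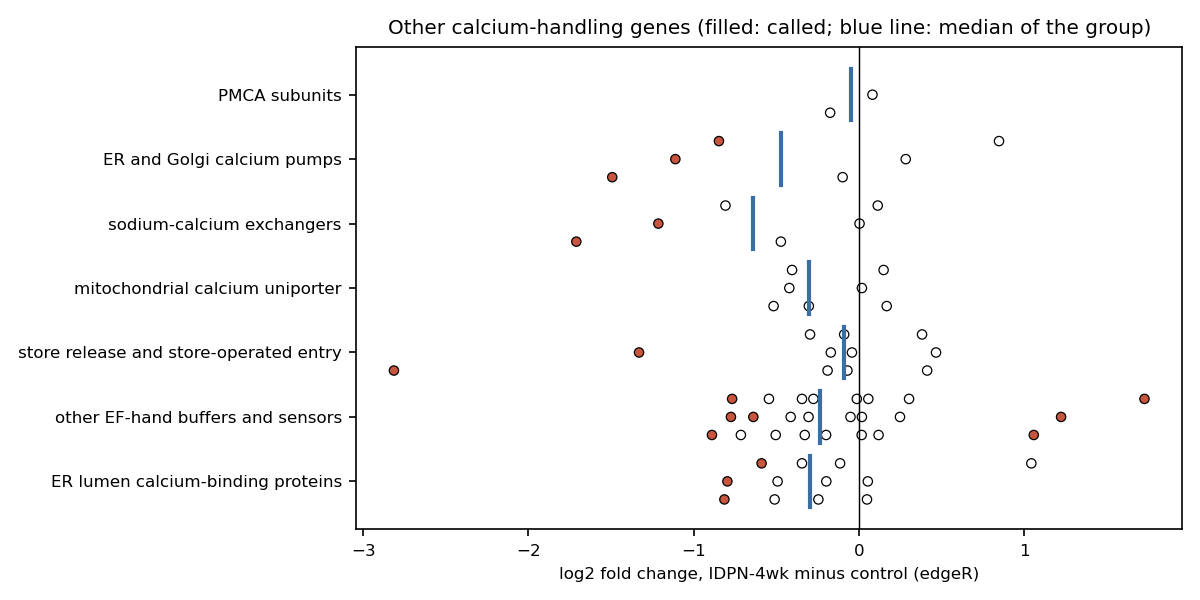
Log2-Fold change of IDPN-4wk against control (horizontal axis) for the 68 tested rows of the wider calcium list, grouped by role (vertical axis). Filled points passed both thresholds and the blue line is the median of the group. Filled points to the right of 0 appear in 1 group, the other EF-hand buffers and sensors, which is the largest with 24 rows.

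The tested genes whose pattern over the 6 libraries was nearest to that of *Atp2b2* were *Loxhd1*, *Cfap77*, *Dner*, *Lhb* and *Ltbp2*. Likeness was the root mean square distance of log2 CPM after centring each gene, and it was 0.121 for *Loxhd1*, which went from 126 to 36.3 CPM. For *Calb2* the nearest were *Gpc6*, *Siglec5*, *Sorcs1*, *Apba2* and *Plcb1*, with a distance of 0.100 for *Gpc6*, from 26.7 to 6.24 CPM. The groups of 5 share no gene. These distances are descriptions over 6 libraries, and all of these genes had a lower mean in IDPN-4wk.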

How the data were processed

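Libraries were prepared from total RNA of each rat by SMART-seq2 (oligo-dT priming, template switching and PCR), which does not keep the strand. The authors mapped reads with STAR 2.5.3a to Rnor6.0 and deposited expected counts per gene from RSEM (version 1.3.0 in the submitters' processing notes). The deposited values were whole numbers and needed no rounding. RSEM shares reads between similar genes, so values of paralogs are less certain.

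Groups came from the treatment label, and 3 libraries per group were compared. Low counts were removed by filterByExpr (a minimum count of 10 and a total of 15), which left 14352 of 32883 genes, and TMM was used for scaling. The 2-sided test was the quasi-likelihood one (edgeR 4.0.16, R 4.3.3), and Padj (Benjamini-Hochberg) covers all genes tested. SE was derived from the F statistic. CPM uses TMM-scaled library sizes. Rats were caged in groups, and which of these 6 shared a cage is not given in the sources used here. The p-values rest on the spread between animals within a group and do not cover a cage difference that coincides with treatment. Alternatives were DESeq2 1.42.0, other scaling, no filter, glmTreat and leaving out each library. The scripts were tested on simulated data. Named genes were the members, *Nptn* and *Bsg*, up to 5 called genes in each direction of the wider list by smallest p, selected markers (*Myo7a*, *Pou4f3*, *Myh4* and 1 that is not reported here), and the 5 nearest in pattern to *Atp2b2* and *Calb2*. Other genes were named after their values were seen. The members and lists were chosen with earlier results of these data known. PCR reads are not independent molecules, so the 3-count limits cover counting error only. Exon lengths of the build used were not at hand, so levels were not corrected for length. Words such as scarce refer to the depth of counts and not to transcript number.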

Additional observations from a re-analysis of the deposited data

How the results depend on the processing

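Downregulated members numbered 5 with edgeR, DESeq2, DESeq2 size factors, library size alone and no low-count filter, and 4 or 5 when 1 library was left out. Without IDPN-4wk replicate 1 the 5 held *Slc8a1* in place of *Calb1*. *Calb1* was downregulated in 2 of the 6 fits that left out 1 library. With glmTreat, where the null is a change of up to 1.5-fold, 3 members (*Atp2b2*, *Calb2* and *Pvalb*) remained, 453 genes in place of 1394 were called, and the wider calcium list had 3 lower and 1 higher genes in place of 14 and 3, since that test is stricter by construction. Padj of *Atp2b3* was then 0.105 and of *Calb1* 0.287. No gene named by the rule above changed sign in any of the 11 alternative fits. With library size alone the median of all genes moved from 0.02 to 0.13, the downregulated share of all calls from 68.1% to 50.6%, and *Atp2b1* to -0.18 (Padj by edgeR 0.0936), while *Myo7a* dropped under the fold change threshold (-0.53), as it did without control replicate 2 (-0.58). The Padj of *Atp2b4* was 0.0808 with DESeq2, 0.0614 without the low-count filter, 0.0493 with DESeq2 size factors and 0.0103 with library size alone (log2-Fold change 0.40), and the fold change stayed under the threshold in these 4 fits. Dividing by *Myo7a*, itself at 64.4% of control, put *Atp2b1*, *S100a1* and *S100b* above their control mean (128%, 113% and 116%), since they fell less than *Myo7a*. Each library came from a different rat and the labels give no pairing, so the groups were compared unpaired. Animal codes in both groups carry the endings LF, NM and RF, and what these stand for is not stated. The labels give no replicate numbers, and those used here follow the order of the libraries within a group. Depth limits *Calb1*, *Slc8a1* and *Atp2b3*, which had 100 counts or fewer in every library.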
